A study of Mus musculus with 20 samples.

Results

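Oxidative phosphorylation, the mitochondrial process that couples the oxidation of fuel to the making of ATP, is carried out by complexes whose genes sit in 2 genomes, and 98 of the 49671 gene IDs counted in these RNA libraries carry a symbol of that gene set. The 98 genes were chosen by symbol as protein-coding genes named after subunits of complex I (Nduf), complex II (Sdh), complex III (Uqcr), complex IV (Cox4 to Cox8) and complex V (Atp5), together with the genes of the mitochondrial genome (mt-Nd, mt-Co, mt-Cytb and mt-Atp). Of these, 85 are nuclear-encoded (38 of complex I, 4 of complex II, 8 of complex III, 18 of complex IV and 17 of complex V) and 13 are mitochondrially encoded (7 of complex I, 1 of complex III, 3 of complex IV and 2 of complex V). Another 9 gene symbols fitted the same patterns and were left out as pseudogenes or not protein-coding. The symbols take in a few genes that are not structural subunits, such as Atp5s (Dmac2l in RefSeq) and Cox7a2l, and leave out subunit genes named otherwise, such as Cyc1 and Ndufab1. The rule itself used symbols and no measured value, although it was set with earlier results of these data known.

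Hematopoietic stem cells (HSCs), the cells from which all blood lineages arise, were sorted from bone marrow as cells without lineage markers that carry cKit, Sca1 and CD150 and lack CD48. The comparison was between 3 Control pools, Vav-CRE:Kdm6b+/+, and 3 Kdm6b-KO pools, Vav-CRE:Kdm6bfl/fl, all on C57BL/6 at 8 weeks of age, with 3 male and 3 female mice in each pool. Kdm6b is a demethylase of histone H3 lysine 27, and Vav drives Cre in blood cells and in some endothelium, so mice of both groups carried the Cre and the removal was not limited to stem cells. ATAC-seq peak lists from 3 libraries titled Control and 3 titled 6bKO were used for the start sites, although the genotype label of all 6 reads wild-type.

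The mitochondrial genome encodes only core subunits of complexes I, III, IV and V, and it is copied into long transcripts that are cut into single messages, whereas complex II and all other subunits come from nuclear genes. Both sets must be made to build a complex. Quiescent HSCs are known for leaning on glycolysis and for raising mitochondrial respiration when they divide or differentiate. Nuclear respiratory factor 1 (NRF1), ETS factors such as GABP, and YY1 are known regulators of nuclear subunit genes.

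Assigned counts ran from 6793873 in Control 1 to 13797890 in Control 3 and from 8683106 in Kdm6b-KO 2 to 19336121 in Kdm6b-KO 3. Control 1 stood apart from the other libraries: mt-Rnr1, a mitochondrial ribosomal RNA gene, took 0.440% of its counts and 0.0180% to 0.0560% elsewhere, and 519 genes in all were called without this library, against 70 with it. The 13 HSC markers examined all passed the filter on low counts, and their summed level was 4687 to 7227 CPM (counts scaled to library size with TMM factors) in Control and 5298 to 5709 CPM in Kdm6b-KO. The sum over 11 neutrophil and granulocyte markers ran from 1192 to 3686 CPM in the Control pools and from 192 to 4333 in the Kdm6b-KO pools, and that over 10 erythroid markers from 8238 to 11127 CPM and from 4516 to 5646 CPM, with no gene of either list called. Nearly all of the erythroid sum came from Car2 (10760, 9643 and 7937 CPM against 5265, 4453 and 5577), and Hbb-bt and Epor were at most 22.2 and 12.8 CPM with their highest values in Kdm6b-KO. The mast cell and basophil sum, over 4 markers, was 13.5 to 79.9 CPM in Control and 4.95 to 11.3 CPM in Kdm6b-KO, without overlap and with no gene called. No marker of these lists, or of the monocyte, B cell, T and NK, megakaryocyte and mast cell lists, was at 0 in all libraries. Kdm6b had 92.0, 282 and 221 CPM in the Control pools and 142, 202 and 191 in the Kdm6b-KO pools (log2 change -0.15, SE 0.35); the sources used here do not say which exons were removed, so a count over the whole gene does not check the labels.

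Most start regions of the nuclear subunit genes were open in these cells, and some of them shared a sequence match. A RefSeq start window (250 bases before to 50 after the start, GRCm38.p6) was found for 68 of the 85 nuclear genes, in 73 windows, and a peak overlapped the window in all 6 ATAC lists for 48 of the 68 genes (70.6%). Among 10478 genes with a window that passed the RNA filter this share was 62.3%, and among all 27025 genes with a window 28.2%. The NRF1 motif, taken as GCGCA, any base and then GCGC, matched on either strand in the windows of 17 of the 68 genes (25.0%), against 11.3% of the genes past the RNA filter and 5.19% of all genes. Below are 6 examples of stretches of 150 bases that end just before the start. All 6 lists held a peak at each, and no other annotated gene overlaps them. Other stretches met these conditions and are not shown, such as one of Ndufa5 with an NRF1 match. Of those shown, the first 4 hold an NRF1 match at genes of complexes I, IV and V. The last 2 belong to genes named further on, whose Kdm6b-KO levels lay above all Control levels. The windows of these last 2 hold none of the 4 motifs searched. Capitals mark a motif match, and each sequence reads 5′ to 3′ on the strand of its gene.
Ndufb4 (chr16:37654369-37654518, - strand): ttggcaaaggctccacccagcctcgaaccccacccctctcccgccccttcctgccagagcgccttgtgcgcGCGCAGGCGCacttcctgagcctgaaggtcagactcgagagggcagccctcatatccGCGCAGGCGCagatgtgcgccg
Ndufs5 (chr4:123718187-123718336, - strand): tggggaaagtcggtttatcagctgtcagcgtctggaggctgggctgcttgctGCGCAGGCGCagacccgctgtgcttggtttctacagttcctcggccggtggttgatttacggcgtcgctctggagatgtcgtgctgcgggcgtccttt
Cox6a1 (chr5:115348959-115349108, - strand): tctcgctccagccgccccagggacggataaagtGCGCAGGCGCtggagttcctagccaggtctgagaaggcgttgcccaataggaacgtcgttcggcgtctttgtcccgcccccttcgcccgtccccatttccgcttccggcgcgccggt
Atp5h (chr11:115419920-115420069, - strand): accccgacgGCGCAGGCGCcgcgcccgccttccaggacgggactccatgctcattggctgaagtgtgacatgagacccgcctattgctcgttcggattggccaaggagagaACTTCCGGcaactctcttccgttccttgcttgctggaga
Cox5b (chr1:36691337-36691486, + strand): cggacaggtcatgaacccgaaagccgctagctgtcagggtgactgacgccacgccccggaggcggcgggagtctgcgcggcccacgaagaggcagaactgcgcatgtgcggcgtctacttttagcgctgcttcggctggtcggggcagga
Atp5b (chr10:128083157-128083306, + strand): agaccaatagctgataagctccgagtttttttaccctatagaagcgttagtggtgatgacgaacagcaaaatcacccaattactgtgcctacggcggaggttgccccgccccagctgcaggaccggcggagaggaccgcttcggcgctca

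In these stretches Ndufb4 held NRF1 matches that began 79 and 22 bases before its start, Ndufs5 one at 98 bases and Cox6a1 one at 117 bases. Atp5h held an NRF1 match at 141 bases and, at 39 bases, the ETS motif CCGGAAGT on the other strand. Sdha, which encodes the flavoprotein of succinate dehydrogenase, held NRF1 matches at 98, 55 and 10 bases before its start, and the annotated gene Ccdc127 overlaps that stretch. The members' windows matched YY1 (AAGATGGCG) in 7 of the 68 genes (10.3%) against 3.50% of the genes past the RNA filter. The YY1 match began 88 bases before the start at Atp5j and 22 to 35 bases after the start at the others. The ETS motif was in 7.35% against 9.07%, and the E-box CACGTG in 8.82% against 11.7%. Every motif was searched on both strands, and no 2 matches of different motifs shared bases in these windows. The median GC content of the 250 bases before the start was 56.0% for the members' windows and 52.4% for all 32851 windows. A match describes letters and is not a measured binding site.

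The count of starts with a peak overlapped between the titles. The lists titled Control had a peak at 52, 54 and 59 of the 68 genes and those titled 6bKO at 50, 57 and 58. Peak numbers, which move with depth, were 47450, 44739 and 62125 and 63682, 53692 and 69729. The median summit lay 32 to 46 bases before the start in the 6 lists. At Ndufs5, an accessory subunit gene of complex I, the summits lay 92 to 130 bases before the start, and at Cox5b between 45 bases before and 42 bases after it. Within each list the authors' fold enrichment of the members' peaks had a median percentile of 79.5 to 89.3. Peaks at the starts of all genes, with no RNA filter applied, had 76.5 to 84.9. Another 12 genes had a peak in 1 to 5 lists, and 8 had none in any list. Atp5f1, the peripheral stalk subunit b of complex V, was among those 8 with 298 to 513 CPM in the RNA libraries. No list held a peak on the mitochondrial genome.

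Of the 98 genes, 86 passed the filter on low counts and were tested with edgeR's quasi-likelihood test across all 15185 genes that passed it: 78 nuclear-encoded and 8 mitochondrially encoded. At an adjusted p under 0.05 just 1 of the 86, Cox4i2, was called, in the direction higher in Kdm6b-KO, where 0.244% of all genes tested were called higher and 0.217% lower (0.461% in either direction). At an unadjusted p under 0.05 there were 7 of the 86 (Cox4i2, Cox5b, Cox6a1, Atp5b and Atp5d higher, Ndufc1 and Atp5l lower), against 14.8% of all genes (7.63% higher and 7.22% lower). All 3 Kdm6b-KO levels lay above all 3 Control levels for 5 genes (Ndufb8, Cox4i2, Cox5b, Atp5b and Atp5d), against 11.0% of all genes tested, and below them for 2 (Ndufs1 and Atp5l), against 9.49%. The counts at an unadjusted p and of separate groups were below these background shares. The 12 genes not tested were Ndufa4l2, Ndufb4c, Cox6a2, Cox7a1, Cox7b2, Cox8b, Cox8c, mt-Nd4l, mt-Co2, mt-Co3, mt-Atp6 and mt-Atp8.

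**Figure D1:**
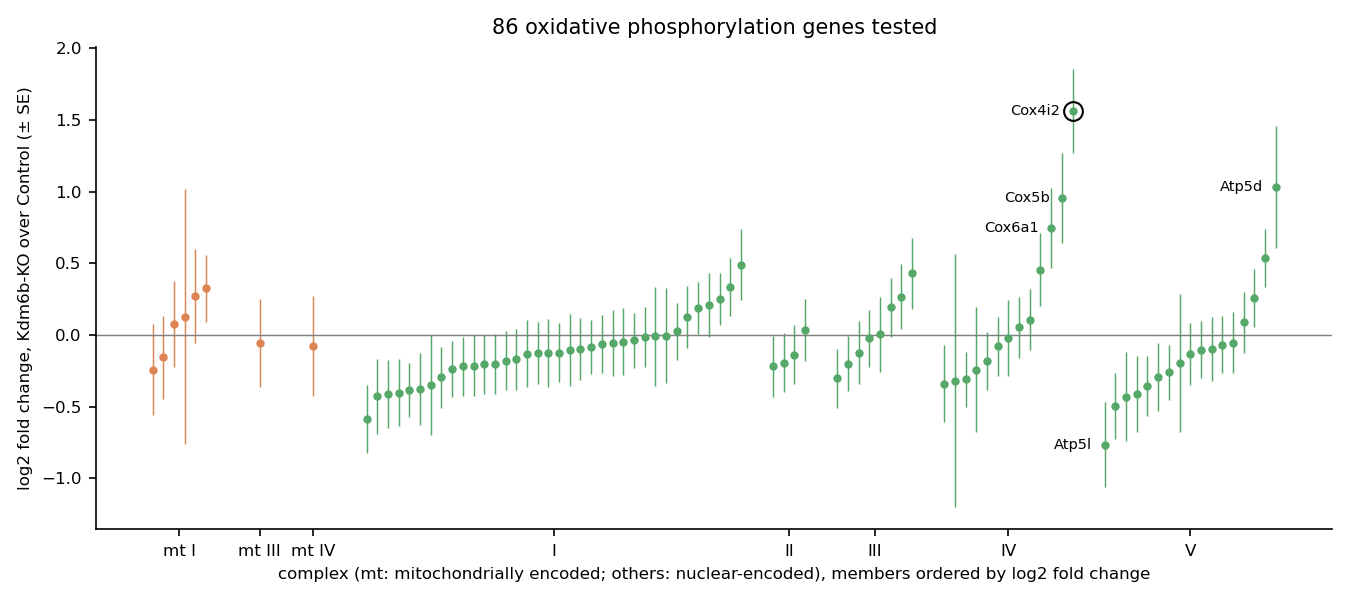
Log2 fold change of each of the 86 tested genes, Kdm6b-KO over Control, with its SE as a bar; the x axis groups genes by complex, orange for mitochondrially encoded and green for nuclear-encoded, and a ring marks the gene called. Of the 86 points 79 lie within 0.5 of 0, and Cox4i2 of complex IV stands highest at 1.56.

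Fold changes of the subunit genes lay closer to 0 than those of genes in general: 71 of the 78 nuclear-encoded genes (91.0%) and all 8 mitochondrially encoded genes were within 0.5 of 0 on the log2 scale, against 71.5% of all genes tested. The nuclear-encoded genes also had a higher median level, 113 CPM against 22.4 CPM for all genes, and its part in the difference was not tested. The median log2 fold change was -0.11 for the nuclear-encoded genes (22 positive and 56 negative), 0.01 for the mitochondrially encoded genes (4 positive and 4 negative) and -0.00 for all genes. By complex, the nuclear medians were -0.12 for I, -0.16 for II, -0.01 for III, -0.02 for IV and -0.13 for V. The negative nuclear median rested on Control 1: without that library it was 0.07, while the other libraries left out in turn gave -0.21 to -0.04. With library totals in place of TMM it was 0.03, where the median of all genes became 0.15, so that the nuclear subunit genes stayed below the median gene. In bulk libraries a smaller share of cells with a message and less message per cell cannot be told apart.

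**Figure D2:**
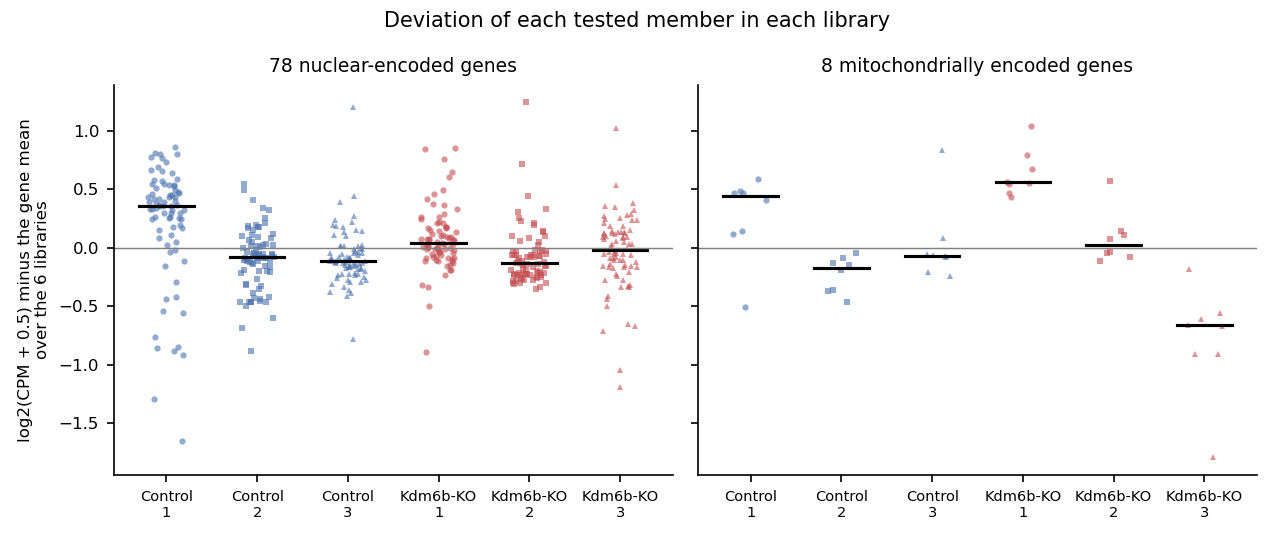
Each point is a tested gene's log2(CPM + 0.5) in a library minus that gene's mean over the 6 libraries, with the median as a black line; the left panel holds 78 nuclear-encoded and the right panel 8 mitochondrially encoded genes. Nuclear-encoded genes are high in Control 1 (median 0.36) and near 0 elsewhere, and mitochondrially encoded genes run from 0.56 in Kdm6b-KO 1 to -0.66 in Kdm6b-KO 3.

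The 2 sets of genes varied between libraries in different ways. Control 1, the library with the fewest counts, was the highest of the 6 for 51 of the 78 nuclear-encoded genes (65.4%), against 21.7% of all genes tested, and their median deviation there was 0.36 on the log2 scale, against 0.00 for all genes. In the other 5 libraries the nuclear median deviation lay between -0.13 and 0.04. Control 1 also had the lowest sum of HSC markers (4687 CPM against 5298 to 7227 elsewhere). Its sums of mast cell and basophil (79.9 against 4.95 to 28.3), T and NK (187 against 66.9 to 135) and erythroid markers (11127 against 4516 to 9852) were the highest. Single genes made up most of these sums in Control 1: Prss34 with 51.3, Nkg7 with 177 and Car2 with 10760 CPM. Of the other T and NK markers, Cd3e, Cd3g and Cd8a were at 0 there, and Cd4 and Klrb1c were not at their highest. The part of the marker levels in the subunit levels of Control 1 was not tested. The mitochondrially encoded genes were also high in Control 1 (median deviation 0.44), but they were higher still in Kdm6b-KO 1 (0.56) and lowest in Kdm6b-KO 3 (-0.66). All 8 fell in the order Kdm6b-KO 1, 2, 3, where 22 of the 78 nuclear-encoded genes and 18.2% of all genes did. The median SD within the Kdm6b-KO libraries was 0.64 for the mitochondrially encoded genes, 0.17 for the nuclear-encoded genes and 0.25 for all genes tested; within Control it was 0.33, 0.35 and 0.32.

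Summed over the 13 mitochondrially encoded genes, the share of assigned counts was 1.55%, 0.949% and 1.17% in the Control pools and 1.92%, 1.26% and 0.797% in the Kdm6b-KO pools. The means were 1.22% ± 0.30 and 1.33% ± 0.57 (SD, n = 3 each), and the groups overlapped, since Kdm6b-KO held both the highest and the lowest library, 2.41-fold apart. Wilson 95% intervals for these libraries, which cover counting error only, were 1.91% to 1.93% and 0.793% to 0.801%. The 85 nuclear-encoded genes made up 1.32%, 0.966% and 1.06% in the Control pools and 1.23%, 1.10% and 1.24% in the Kdm6b-KO pools, and these groups overlapped too.

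The ratio of mitochondrial to nuclear subunit counts, which does not depend on library scaling, came to 1.18, 0.982 and 1.10 for the Control pools, against 1.57, 1.15 and 0.645 (means 1.08 ± 0.10 and 1.12 ± 0.46). The ratio put the same Kdm6b-KO libraries at its ends as the share did. Granulocyte markers summed to 4333 CPM in Kdm6b-KO 1 but to 194 and 192 CPM in Kdm6b-KO 2 and 3, of which the latter also had the most counts; the part of either in the ratio was not tested.

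**Figure D3:**
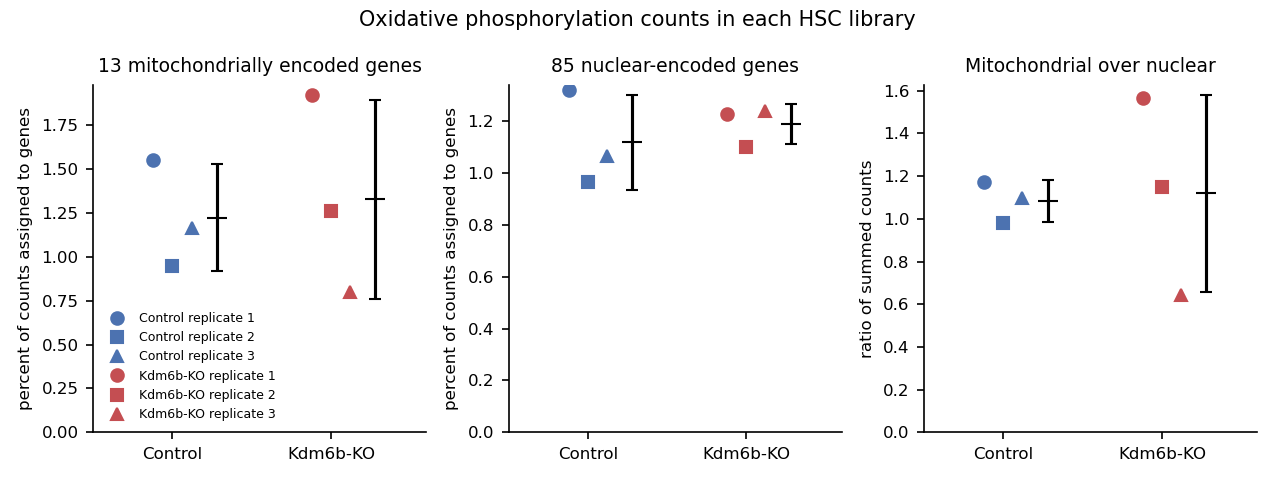
Percent of assigned counts from the mitochondrially encoded and the nuclear-encoded genes, and the ratio of the summed counts, with a point for each library and the mean ± SD (n = 3) beside each group. The groups overlap in all 3 panels, and the Kdm6b-KO ratio spans 0.645 to 1.57 while the Control ratio spans 0.982 to 1.18.

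Levels for length were ordered among the mitochondrially encoded genes with counts, leaving out mt-Nd3 (6.32 CPM per kb) and the 5 genes at 0 described below. Reads without a unique alignment were not counted, and their part in this order was not tested. In this order mt-Cytb, the cytochrome b of complex III, was highest, with 3915 ± 1146 CPM per kb over the 6 libraries (SD). It was followed by mt-Nd1 at 2305 ± 637 and mt-Co1, the catalytic subunit of complex IV, at 1798 ± 637 CPM per kb. Next came mt-Nd5 (867 ± 319 CPM per kb), mt-Nd6 (716 ± 175), mt-Nd4 (564 ± 179) and mt-Nd2 (532 ± 176). These SDs are over the libraries of both groups, and the ranges of mean ± SD of neighbours in this order overlapped. Within libraries, each gene was above the next in all 6, except that mt-Nd5 was above mt-Nd6 in 5 and mt-Nd4 above mt-Nd2 in 3. The reading frames of mt-Nd5 and mt-Nd6, which lie on opposite strands, overlap, and the strand setting of the counting is not given in the sources used here.

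None of the 8 tested mitochondrial genes was called. The level of mt-Cytb in CPM was 5739, 3780 and 4170 for Control and 6344, 4008 and 2829 for Kdm6b-KO (log2 change -0.05, SE 0.31, adjusted p = 0.956 by edgeR). The largest positive difference was that of mt-Nd6, the subunit encoded on the opposite strand from the others, with 402, 281 and 307 CPM in the Control pools and 530, 391 and 320 in the Kdm6b-KO pools (log2 change 0.33, SE 0.23, adjusted p = 0.539), and the groups overlapped. The largest negative difference was that of mt-Nd2, at -0.24 (SE 0.32, adjusted p = 0.766). Both values moved with single libraries: without Kdm6b-KO 1 they were 0.11 for mt-Nd6 and -0.59 for mt-Nd2, without Kdm6b-KO 3 they were 0.48 and 0.05, and without Control 1 they were 0.49 and 0.01.

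A stretch of the mitochondrial genome carried almost no counts. mt-Co2, mt-Atp8, mt-Atp6 and mt-Co3, which follow each other from base 7013 to base 9390, were listed at 0 in all 6 libraries, as was mt-Nd4l, and mt-Nd3 between them had 0.148 to 4.11 CPM. For a gene whose reads align uniquely, a count of 0 allows at most 0.148 to 0.461 CPM in these libraries (3 counts). Whether reads of these genes could be counted was not tested, so the bound may not hold for them. In all, 11 of the 37 mitochondrial genes in the files were at 0 in every library, 5 of them subunit genes and the others tRNA genes. RefSeq gives mt-Atp6 as another name of Gm10925, a pseudogene on chromosome 1 (24613971 to 24614651) of 681 bases, the length of mt-Atp6 itself. Reads without a unique alignment are listed apart from the genes and made up 37.6% to 46.8% of all reads; their part in the counts of 0 was not tested. The share of counts from mitochondrial genes and the ratio to nuclear genes therefore rest on 8 genes.

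**Figure D4:**
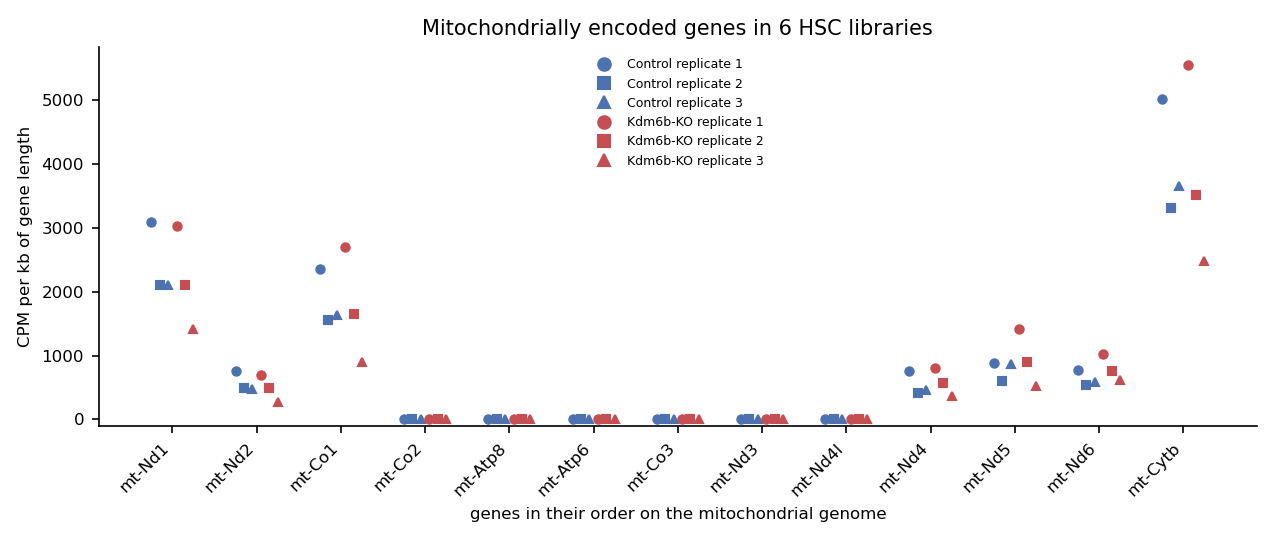
CPM per kb of gene length for the 13 mitochondrially encoded genes, in their order on the mitochondrial genome, with a point for each library. mt-Cytb, mt-Nd1 and mt-Co1 stand highest, and the 6 genes from mt-Co2 to mt-Nd4l lie at or near 0 in every library.

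Complex IV passes electrons to oxygen, and its regulatory subunit 4 comes in a common form, Cox4i1, and a form known to rise in hypoxia, Cox4i2. Cox4i2 (chromosome 2, 152753916 to 152765039) had 7.83, 6.10 and 6.58 CPM in the Control pools and 21.3, 14.8 and 24.2 in the Kdm6b-KO pools, from 51, 48 and 90 and from 244, 136 and 489 counts. The lowest Kdm6b-KO level was above the highest Control level. Its mean rose 2.94-fold, from 6.84 ± 0.90 to 20.1 ± 4.80 CPM (SD, n = 3), with a log2 fold change of 1.56, SE 0.29 and an adjusted p of 0.0289 by edgeR. The change stayed positive in all 13 alternative fits (1.41 to 1.74), and the adjusted p ranged from 0.000252 to 0.250. The call was lost without Control 2 (0.108), Control 3 (0.0564), Kdm6b-KO 1 (0.0699), Kdm6b-KO 2 (0.0634) or Kdm6b-KO 3 (0.250), each fit having 1 library less.

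Cox4i1 had 690, 481 and 515 CPM in the Control pools and 631, 568 and 618 in the Kdm6b-KO pools (log2 change 0.11, SE 0.21). As a share of the counts of both forms, Cox4i2 made up 1.12%, 1.25% and 1.26% in the Control pools and 3.27%, 2.54% and 3.77% in the Kdm6b-KO pools, a ratio within each library that does not depend on scaling and is not corrected for length. The groups did not overlap.

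The annotated span of Cox4i2 overlaps those of the non-coding gene Gm32057 and of Bcl2l1, the gene of the survival protein Bcl-xL, and counts of overlapping genes can be mixed where strand was not used. Bcl2l1 had 69.0, 131 and 113 CPM in the Control pools and 119, 109 and 213 in the Kdm6b-KO pools (log2 change 0.50, SE 0.29, adjusted p = 0.455). Per 100 Bcl2l1 counts, Cox4i2 had 11.4, 4.67 and 5.83 counts in the Control pools and 18.0, 13.5 and 11.4 in the Kdm6b-KO pools, and on this ratio the groups overlapped between Control 1 and Kdm6b-KO 3. The gene on the other side, Id1, an inhibitor of DNA-binding proteins, had 7, 2 and 12 counts in the Control pools and 53, 16 and 78 in the Kdm6b-KO pools (log2 change 2.20, SE 0.62, adjusted p = 0.130). Tpx2, a spindle gene beyond Bcl2l1, went the other way, with 98.8, 80.3 and 96.7 CPM against 64.0, 65.4 and 53.4 (-0.59, SE 0.19, adjusted p = 0.170), and its groups did not overlap. The part of the neighbouring genes in the Cox4i2 counts was not tested.

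Other subunits of complex IV did not pass the threshold. Cox5b had 7.37, 13.7 and 20.7 CPM in the Control pools and 28.8, 25.7 and 27.4 in the Kdm6b-KO pools (log2 change 0.95, SE 0.31, adjusted p = 0.186). The groups did not overlap, and Control 1 was lowest. Cox6a1, the common form of subunit 6a, had 39.0, 52.4 and 81.5 CPM in the Control pools and 131, 84.5 and 76.7 in the Kdm6b-KO pools (log2 change 0.75, SE 0.28, adjusted p = 0.247), with overlapping groups. Without Kdm6b-KO 1 it was 0.48. Cox5a had the largest SE of the nuclear-encoded genes, with 20.3, 29.1 and 64.4 CPM in the Control pools and 14.7, 66.3 and 11.9 in the Kdm6b-KO pools (SE 0.88 on the log2 scale). High and low libraries of Cox5a were found in both groups. Cox5b, Cox5a, Atp5b, Ndufs1 and Ndufb8 were singled out after their values had been seen.

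**Figure D5:**
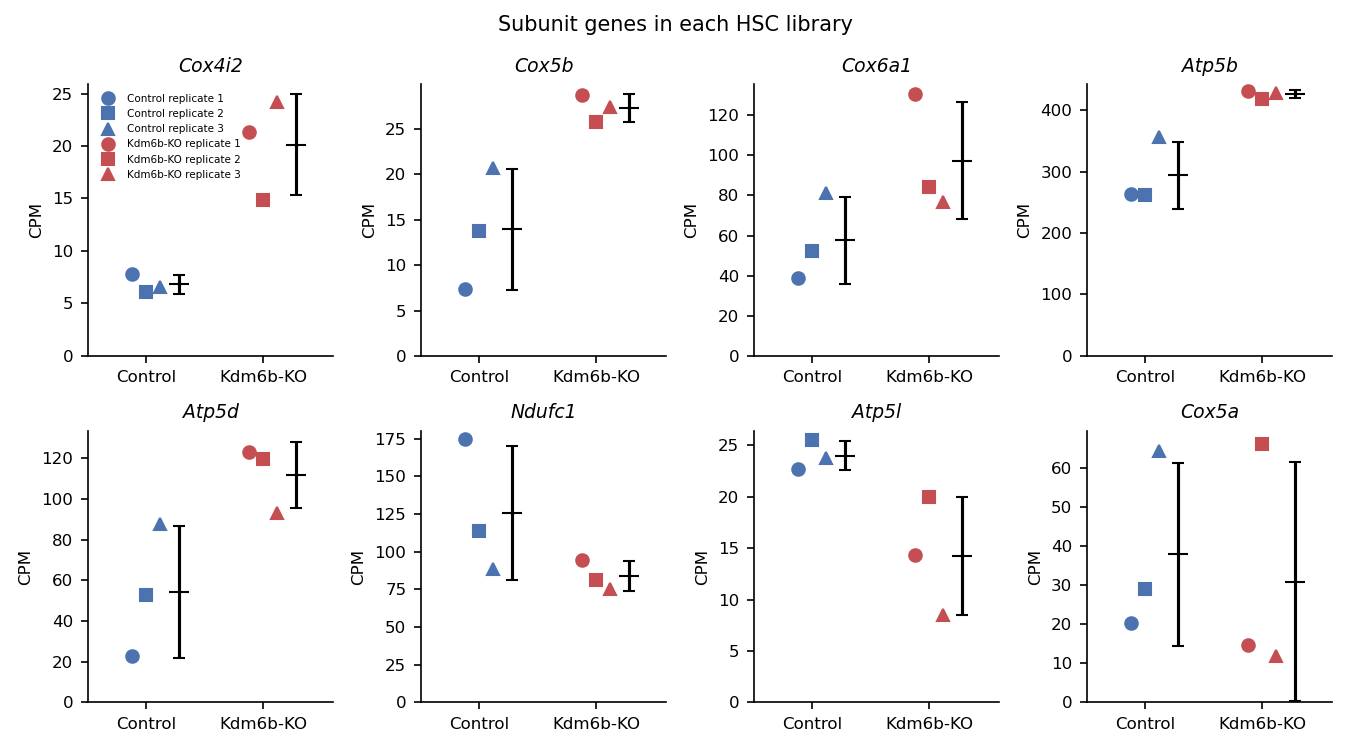
CPM in each library, with the mean ± SD (n = 3) beside each group, for 8 subunit genes of complexes I, IV and V. Cox4i2, Cox5b, Atp5b and Atp5d are higher in every Kdm6b-KO library than in any Control library, Atp5l is lower, and Cox6a1, Ndufc1 and Cox5a overlap.

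Forms of complex IV subunits known from muscle, heart or testis were near or at 0 in HSCs. Cox8b, the heart and muscle form of subunit 8, had 0 counts in all 6 libraries, and Cox8c, Cox6a2, Cox7b2 and Cox7a1 reached at most 0.365, 0.365, 0.981 and 0.874 CPM. Of their common counterparts, beside Cox6a1, Cox7a2 had 94.6 to 149 CPM, Cox7b 113 to 171 CPM and Cox8a 40.2 to 108 CPM. None of these was called. The log2 change of Cox8a was 0.46 (SE 0.25, adjusted p = 0.418), and 0.24 without Control 1 or 0.22 without Kdm6b-KO 1. Cox6b2, known as the testis form of subunit 6b, was the exception, with 24.3 to 41.3 CPM in the Control pools and 27.6 to 46.1 in the Kdm6b-KO pools. It made up 19.3% to 25.0% of the counts of Cox6b1 and Cox6b2 in Control and 16.4% to 24.6% in Kdm6b-KO. Cox6c had 110 to 202 CPM in the Control pools and 78.5 to 146 in the Kdm6b-KO pools (log2 change -0.34, but -0.03 without Control 1, -0.13 without Kdm6b-KO 3 and -0.55 without Kdm6b-KO 1), and Cox7a2l, a factor in joining complexes III and IV, 137 to 202 and 134 to 183 CPM (-0.08).

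Complex V, the ATP synthase, had 17 genes tested, none called, 4 with a positive and 13 with a negative log2 fold change. Atp5d, the delta subunit, had 22.7, 52.6 and 87.8 CPM in the Control pools and 123, 120 and 93.3 in the Kdm6b-KO pools (log2 change 1.03, SE 0.42, adjusted p = 0.323). Its lowest value was in Control 1, and without that library the log2 fold change was 0.67. Its gene overlaps Cbarp. Atp5b, the catalytic beta subunit, had 264, 262 and 357 CPM in the Control pools and 431, 419 and 428 in the Kdm6b-KO pools (log2 change 0.53, SE 0.20, adjusted p = 0.246).

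The Kdm6b-KO values of Atp5b lay close together, while those of its partner Atp5a1, the alpha subunit, did not separate from Control: 861, 803 and 881 CPM against 808, 832 and 1064 CPM (log2 change 0.09, SE 0.21). Atp5c1, the gamma subunit, had 492 to 631 CPM in the Control pools and 442 to 564 in the Kdm6b-KO pools (-0.05). Atp5l, a membrane subunit, had 22.7, 25.5 and 23.7 CPM in the Control pools and 14.3, 19.9 and 8.46 in the Kdm6b-KO pools (log2 change -0.76, SE 0.30, adjusted p = 0.259). The groups of Atp5l did not overlap, but it has annotated pseudogene copies, among which unique counting can drop reads, so its level is uncertain. Atp5g1, Atp5g2 and Atp5g3 all encode the proton-carrying subunit c. Atp5g3 had 82.2 to 123 CPM in the Control pools and 112 to 143 in the Kdm6b-KO pools (0.26). Atp5g1 had 9.13 to 15.5 and 7.08 to 10.0 CPM (-0.43), and Atp5g2 1.69 to 4.19 and 2.08 to 2.94 CPM (-0.20). Reads without a unique alignment were counted for no gene. Their part in low levels such as those of Atp5g1, Atp5g2 and Cox5b was not tested.

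Complex I, which takes electrons from NADH, had 36 nuclear genes tested, none called, 7 with a positive and 29 with a negative log2 fold change. Ndufc1, an accessory subunit, had 175, 114 and 88.6 CPM in the Control pools and 94.4, 81.3 and 75.0 in the Kdm6b-KO pools (log2 change -0.59, SE 0.24, adjusted p = 0.273). Control 1 was its highest library, and without it the log2 fold change was -0.27. Ndufs1, the largest iron-sulfur core subunit, had 152, 206 and 177 CPM in the Control pools and 136, 130 and 144 in the Kdm6b-KO pools (-0.38, SE 0.19, adjusted p = 0.358), and Ndufb8 94.8, 89.8 and 98.2 against 107, 101 and 128 CPM (0.25, SE 0.18, adjusted p = 0.546).

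The largest positive difference of complex I was that of Ndufa10, with 41.5, 65.7 and 89.2 CPM in the Control pools and 107, 81.3 and 89.2 in the Kdm6b-KO pools (0.49, SE 0.25, adjusted p = 0.371), and its groups overlapped. Without Control 1 it was 0.25 and without Control 3 it was 0.78. Ndufv2, a core subunit, and Ndufa4, which is also known as a subunit of complex IV, had the most CPM among them, not corrected for length, with 228 to 358 and 246 to 367 CPM and log2 fold changes of -0.22 and -0.20. Ndufa4l2, a relative of Ndufa4 known to rise in hypoxia, stayed at or below 0.365 CPM in every library.

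Complex II links the citric acid cycle to the electron chain, and none of its 4 genes was called. Sdha had 650, 703 and 622 CPM in the Control pools and 537, 510 and 682 in the Kdm6b-KO pools (-0.19, SE 0.21), and Sdhb, the iron-sulfur subunit, 312, 248 and 197 against 208, 191 and 250 CPM (-0.22, SE 0.21). The membrane anchors Sdhc and Sdhd had log2 fold changes of 0.04 and -0.14. In complex III, Uqcrc1, a core subunit, had 185, 308 and 387 CPM in the Control pools and 400, 354 and 433 in the Kdm6b-KO pools (0.43, SE 0.25, adjusted p = 0.440). Control 1 was its lowest library, and without it the log2 change was 0.19 (0.68 without Control 3). Its partner Uqcrc2 had 267 to 336 CPM in the Control pools and 235 to 270 in the Kdm6b-KO pools (-0.20), and the small subunit Uqcrq 84.8 to 136 and 84.3 to 102 CPM (-0.30). Uqcrc1, Cox5b, Cox6a1, Cox8a, Atp5d and Ndufa10 were among the 9 nuclear-encoded genes that were lowest in Control 1, the library in which most subunit genes were highest.

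Genes that assemble or serve the chain were counted in the same fit. Among 14 complex I assembly factors none was called, among 10 of complexes II and III Lyrm7 was called lower, among 19 of complex IV Cox11 was called lower, and among 3 of complex V none was called. Cox11, which delivers copper to complex IV, had 23.0, 38.1 and 29.6 CPM in the Control pools and 10.6, 8.39 and 5.19 in the Kdm6b-KO pools (log2 change -1.92, SE 0.31, adjusted p = 0.0084 by edgeR). Lyrm7, which helps insert the iron-sulfur protein into complex III, had 11.2, 14.6 and 11.3 CPM in the Control pools and 4.72, 3.70 and 2.62 in the Kdm6b-KO pools (-1.76, SE 0.34, adjusted p = 0.0361). Neither gene's groups overlapped.

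Cox11 (90638184 to 90645977) and Lyrm7 (54826866 to 54860921) lie on chromosome 11, which also holds Kdm6b (69398508 to 69420367). On that chromosome 27 of 1110 tested genes with a position were called (2.43%), 14 of them lower, against 30 of 12324 elsewhere (0.243%). The 4 subunit genes tested on chromosome 11 (Atp5g1, Atp5h, Uqcr10 and Uqcrq) were not called and had a median log2 fold change of -0.21. The part of the chromosome in the levels of Cox11 and Lyrm7 was not tested.

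No gene was called among 22 tested factors of mitochondrial DNA and RNA, 11 nuclear regulators, 16 genes of the citric acid cycle, 20 of glycolysis, 12 electron carriers, transporters and uncoupling genes, or 76 of the mitochondrial ribosome. The list of 20 glycolysis genes takes in the glucose transporter gene Slc2a1 and the kinase genes Pdk1 to Pdk4. Its median log2 fold change, 0.20, was the highest among these lists, with 18 of 20 positive, against 49.9% of all genes tested. Kdm6b-KO 3 was the highest library for 13 of the 20, against 3173 of all 15185 genes tested. The part of that library in the median of the list was not tested. The genes of this list with the most CPM, Aldoa and Pkm, had log2 fold changes of 0.03 and 0.06. Medians were 0.00 for mitochondrial DNA and RNA, 0.08 for the regulators, 0.02 for the citric acid cycle, -0.13 for the carriers and -0.03 for the mitochondrial ribosome. Myc, a regulator of growth and of mitochondrial genes, had 330, 690 and 525 CPM in the Control pools and 271, 417 and 283 in the Kdm6b-KO pools (-0.67, SE 0.27, adjusted p = 0.279). For the oxidative stress regulator Nfe2l2 the log2 fold change was 0.08, for Mdh2 and Idh3a of the citric acid cycle -0.27 and -0.40, and for Slirp, which stabilises mitochondrial messages, -0.12. Mitochondrial ribosome genes were highest in Control 1 for 38 of 76, and the nuclear subunit genes for 51 of 78.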

How the data were processed

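RNA was measured in 6 HSC libraries and chromatin openness in 6 ATAC libraries; 8 chromatin immunoprecipitation and input samples were not analysed here. Per the labels' protocols, RNA libraries came from 3 to 5 ng of total RNA (SMARTer Ultra Low kit). Each deposited RNA file lists, for 1 library, unnormalized counts by Ensembl ID; HTSeq 0.8.0, Partek 6.6, STAR 2.0.4 and featureCounts 1.4.5 (Subread) appear in the submitters' processing notes with no roles. Lines for unassigned reads, which name no gene, were left out of sizes and tests; counts assigned to genes were 16.5% to 19.7% of the reads listed. In the deposited ATAC peak lists fold enrichment is the authors' ratio, while p and q stand as −log10 values, with a smallest −log10 q of 2.00; cutadapt 1.16, BWA 0.7.16a and MACS2 are named in the submitters' processing notes. The build is mm10 per the labels; the sources used here give neither strand setting nor annotation release. ATAC depth is unknown.

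Symbols matched 49326 of 49671 gene IDs. The test was the two-sided quasi-likelihood test of edgeR 4.0.16 (R 4.3.3) on genotype, with robust glmQLFit after filterByExpr and TMM, adjusted by Benjamini-Hochberg over 15185 genes at a threshold of 0.05; the procedure was tested on simulated data. CPM values are counts divided by TMM-scaled library sizes. Each SE was obtained from the fold change and its F statistic. The members and lists were chosen with earlier results of these data known, so no p-value over a list is given. Genes were named if called, if mitochondrially encoded, if a tissue form of a subunit, or if highest in level or change within a complex among genes with a mean of at least 5 CPM; level was taken as CPM, since no coding lengths were at hand, which departs from the planned counts per coding kb. From the other lists, genes called or the 2 of highest level were eligible. Replicates are separate pools of mice, and none of the 6 within-group pairs of RNA libraries agreed within sampling noise. Start windows and sequences are from RefSeq (GRCm38.p6), matched by symbol, and any overlap with a peak counted. Alternatives were other scalings, no filter, DESeq2 1.42.0, limma-voom 3.58.1, a replicate block, and each library left out.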

Additional observations from a re-analysis of the deposited data

How the results depend on the processing

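The count of subunit genes called, 1, stayed at 1 under DESeq2, limma-voom, 3 other scalings and a replicate block. It became 4 without a filter on low counts, where Cox5b, Cox6a1 (adjusted p = 0.0381) and Atp5d (0.000855) joined Cox4i2, and was 0 to 1 with each library left out in turn (1 only without Control 1). For all genes the 70 called became 433 with DESeq2 and 576 without the filter, in both of which 34366 genes entered the fit, and 20 to 519 with each library left out, the highest without Control 1. Same-numbered libraries share only a number: the correlations of their deviations from the group means were 0.03, 0.16 and -0.13. With the replicate number as a block, 88 genes in all were called, and the median log2 fold change was -0.09 for the nuclear-encoded and -0.14 for the mitochondrially encoded genes. Other settings gave nuclear medians of -0.21 to 0.07 and mitochondrial medians of -0.44 (without Kdm6b-KO 1) to 0.28 (without Kdm6b-KO 3), and the difference in mitochondrial share (0.10 percentage points) ran from -0.19 to 0.37 with each library left out and was -0.27 when rRNA and tRNA genes were included. The log2 ratio of mitochondrial to nuclear counts differed by -0.04 between groups, and by -0.33 to 0.31 with each library left out. With a −log10 q of at least 5 the starts with a peak in all 6 lists were 48, and with the start itself inside the peak 45. Depth limits genes at 0 to under 0.148 to 0.461 CPM where their reads could be counted, and 3 libraries a group limit all calls.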

Other observations

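The mitochondrial ribosomal RNA genes are not subunit genes, and neither was called. mt-Rnr1, the small ribosomal RNA, had 4591, 629 and 323 CPM in the Control pools and 391, 315 and 172 in the Kdm6b-KO pools, so that Control 1 stood far above the other libraries (log2 change -2.66, SE 1.23, adjusted p = 0.415 by edgeR). mt-Rnr2, the large ribosomal RNA, had 15480, 7064 and 8835 CPM in the Control pools and 11065, 7292 and 3540 in the Kdm6b-KO pools (-0.52, SE 0.41, adjusted p = 0.588). All mitochondrial genes together made up 3.48%, 1.64% and 2.08% of assigned counts in Control and 3.13%, 2.07% and 1.19% in Kdm6b-KO.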
